A study of Homo sapiens with 24 samples.

Results

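PFKFB1, PFKFB2, PFKFB3, PFKFB4 and TIGAR set the level of fructose-2,6-bisphosphate, a small sugar phosphate that switches glycolysis up. They were taken by symbol, TIGAR under its older symbol C12orf5, and make up 5 of the 25728 gene symbols in the count files; 4 of the 5 had enough reads to be tested, and PFKFB1 did not. In UCSD-AML1 cells given cyclocreatine, PFKFB2 stood 4.62-fold below its vehicle level, and PFKFB4 was farthest below vehicle in TF-1, by 2.46-fold. PFKFB3 was within its own spread of vehicle in TF-1 and UCSD-AML1, and TIGAR, hardly transcribed in the other 2 lines, averaged 7.94 CPM with the drug and 7.95 CPM with vehicle in UCSD-AML1 (CPM, reads counted for the gene after TMM scaling of each library to the same total).

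The libraries come from 3 human acute myeloid leukemia lines that the series describes as driven by EVI1, the transcription factor encoded by MECOM. Cells of TF-1, UT-7 and UCSD-AML1 were given 3 mM cyclocreatine or vehicle, and RNA was taken after 24 h from 4 libraries per group, 24 in all. Cyclocreatine is an analog of creatine and a substrate of creatine kinase. TF-1 is an erythroleukemia line and UT-7 a megakaryoblastic line, both dependent on a growth factor, and in UCSD-AML1 chromosome 3 is rearranged at MECOM. Each line stands for 1 leukemia, and no line without EVI1 was analysed here. The labels say that cells were treated in quadruplicate, but not whether replicate libraries were grown separately. Each SE and p rests on the spread between libraries of the same group, estimated over all 6 groups in 1 model. That spread may be technical.

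The PFKFB proteins carry a kinase and a phosphatase in the same chain. The kinase makes fructose-2,6-bisphosphate from fructose 6-phosphate and the phosphatase takes it apart again. Fructose-2,6-bisphosphate activates phosphofructokinase, the committing enzyme of glycolysis, and inhibits fructose-1,6-bisphosphatase, which runs that step backwards. PFKFB1 is the form of liver and muscle, PFKFB2 the form described in heart, PFKFB3 an inducible form with far more kinase than phosphatase activity, and PFKFB4 the form described in testis. PFKFB3 and PFKFB4 are known targets of hypoxia-inducible factors. TIGAR resembles the phosphatase part of these enzymes and is held to turn glucose towards the pentose phosphate pathway.

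Promoter sequence is shown for PFKFB4, PFKFB3 and TIGAR, since PFKFB3 and PFKFB4 share known regulators but stood at different levels after cyclocreatine. The sequences are the 250 bases before RefSeq start sites in GRCh38.p14, read along the gene's strand, and 4 of the 5 genes had an entry. Capitals mark ACGTG or GCGTG, the cores that hypoxia-inducible factors can bind, searched on both strands; CACGTG reads the same on both strands and holds ACGTG on each.
PFKFB4, chr3:48556804-48557053, minus strand: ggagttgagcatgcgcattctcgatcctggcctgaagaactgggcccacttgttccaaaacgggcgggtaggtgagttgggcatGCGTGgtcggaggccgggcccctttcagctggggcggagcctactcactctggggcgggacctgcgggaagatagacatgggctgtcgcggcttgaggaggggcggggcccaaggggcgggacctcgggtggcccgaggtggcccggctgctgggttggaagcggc
PFKFB3, upstream start, chr10:6144671-6144920, plus strand: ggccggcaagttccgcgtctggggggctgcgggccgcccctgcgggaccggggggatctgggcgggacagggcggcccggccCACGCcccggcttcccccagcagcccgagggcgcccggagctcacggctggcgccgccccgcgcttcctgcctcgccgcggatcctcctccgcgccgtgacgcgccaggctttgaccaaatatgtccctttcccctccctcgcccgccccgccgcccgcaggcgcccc
PFKFB3, downstream start, chr10:6202682-6202931, plus strand: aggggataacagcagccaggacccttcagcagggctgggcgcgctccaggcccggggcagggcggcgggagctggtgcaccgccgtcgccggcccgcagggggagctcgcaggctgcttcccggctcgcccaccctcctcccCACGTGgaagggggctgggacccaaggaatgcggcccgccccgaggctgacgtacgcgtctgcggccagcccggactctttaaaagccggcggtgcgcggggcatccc
TIGAR, chr12:4320963-4321212, plus strand: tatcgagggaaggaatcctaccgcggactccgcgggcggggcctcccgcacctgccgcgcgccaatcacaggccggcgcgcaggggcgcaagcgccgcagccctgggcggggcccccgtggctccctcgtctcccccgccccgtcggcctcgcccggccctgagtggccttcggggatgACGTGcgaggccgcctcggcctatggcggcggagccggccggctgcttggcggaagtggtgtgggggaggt
The PFKFB4 window held 1 GCGTG, at -166 from the start site, and 5 copies of GGGCGG, the letters known as the Sp1 box. The upstream PFKFB3 window held GCGTG on the reverse strand at -168, and the downstream window held CACGTG at -108. The TIGAR window held ACGTG at -71. Both PFKFB1 windows held neither core, and at 52.8% and 39.2% G or C they were the poorest in G and C of the windows examined here, against 68.0% in PFKFB4. Such matches are common: of 35114 RefSeq windows of this length, 43.2% held ACGTG or GCGTG on some strand, 6.35% held CACGTG and 42.6% held GGGCGG. They describe letters in these windows and show no binding.

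A library held 12794998 to 21200662 counts, and 14588 genes passed the filter on low counts. Levels are CPM with the SD over 4 libraries, and log2 fold changes are cyclocreatine over vehicle with their SE. TF-1 cyclocreatine replicate 1 stood apart, with 9.37% of its counts in ribosomal protein genes, where the other treated TF-1 libraries had 7.76% to 7.81%; fold changes of the tested members in TF-1, and the sums and list counts that rest on this group, are also given without it. Ribosomal protein genes took a larger share in every treated group than in its vehicle group, at 7.76% to 9.37% against 5.78% to 6.03% in TF-1, 6.43% to 6.95% against 5.50% to 5.71% in UT-7, and 6.64% to 6.84% against 5.61% to 5.83% in UCSD-AML1; their part in the results was not tested. Of 8 myeloid and progenitor markers, 5 to 8 were over 1 CPM in each group, CD33, CD34 and KIT among them, and CD38 was at 0 in UCSD-AML1. All 8 erythroid markers were over 1 CPM in TF-1 and UT-7, but only GATA1 and EPOR in UCSD-AML1. Of 5 lymphoid markers, MS4A1 was at 0 in every group, while CD79A stood at 41.3 ± 2.45 CPM in treated and 36.9 ± 2.67 CPM in vehicle UCSD-AML1. Of 7 stromal, epithelial and endothelial markers, COL1A1 and CDH5 were over 1 CPM in UCSD-AML1, where the 7 summed to 243.6 to 256.4 CPM with cyclocreatine and 251.7 to 272.3 CPM with vehicle. The 5 megakaryocyte markers summed to 995.1 to 1084 CPM in treated and 678.8 to 707.1 CPM in vehicle TF-1, to 1085 to 1116 CPM in treated and 884.8 to 927.3 CPM in vehicle UT-7, and to 714.7 to 731.4 CPM in treated and 787.9 to 856.1 CPM in vehicle UCSD-AML1, with PF4 at 0 in TF-1 and UT-7. The part of these markers in the results was not tested.

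The list of genes was drawn up with treatment results of these libraries known. The effects of cyclocreatine on its members, and the differences between lines in those effects, are therefore given as a description with no p. Of the 4 tested, PFKFB2 and PFKFB4 passed the edgeR threshold of the fit across all genes (adjusted p under 0.05) in the lower direction in TF-1, where 29.3% of all tested genes did. In UCSD-AML1 the same pair passed, against 21.3% of all genes, and in UT-7 PFKFB2, PFKFB3 and PFKFB4 passed, against 23.3%. Across all 3 lines 8.97% of genes were called lower. These shares stand beside the counts as background, and nothing is read from them.

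PFKFB4 had 24.5, 19.4, 24.6 and 23.7 CPM in TF-1 libraries given cyclocreatine, against 59.2, 55.0, 54.8 and 58.3 CPM in TF-1 vehicle libraries. In UT-7 it had 13.6, 14.3, 12.4 and 12.2 CPM in treated libraries, against 24.2, 27.0, 24.9 and 26.4 CPM in vehicle libraries. In UCSD-AML1 it had 19.8, 20.3, 21.5 and 18.1 CPM in treated libraries, against 27.0, 32.4, 23.7 and 29.3 CPM in vehicle libraries. In each line all 4 treated libraries lay below all 4 vehicle libraries, with the smallest gap in UCSD-AML1; groups separated in this direction for 21.0% of all tested genes in TF-1, 24.1% of them in UT-7 and 23.1% of them in UCSD-AML1. The log2 fold change was -1.30 ± 0.08 in TF-1 (2.46-fold lower; -1.33 without replicate 1 of the treated group). It was -0.96 ± 0.09 in UT-7 (1.95-fold lower) and -0.49 ± 0.08 in UCSD-AML1 (1.41-fold lower). Ordered from the most negative fold change, PFKFB4 was 499th of 14588 genes in TF-1, 551st in UT-7 and 1418th in cells of UCSD-AML1.

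PFKFB2, the form whose kinase is known to be raised by phosphorylation in heart, was farthest below vehicle in UCSD-AML1, where PFKFB4 was least below. It had 6.92, 8.15, 7.11 and 6.95 CPM in UCSD-AML1 libraries given cyclocreatine, against 33.2, 36.9, 31.9 and 32.9 CPM in UCSD-AML1 vehicle libraries. In TF-1 it had 15.9, 13.6, 16.3 and 15.6 CPM in treated libraries, against 34.1, 26.6, 30.5 and 30.9 CPM in vehicle libraries. In UT-7 it had 24.1, 24.3, 27.7 and 25.2 CPM in treated libraries, against 31.2, 33.7, 31.3 and 33.3 CPM in vehicle libraries. Treated and vehicle libraries did not overlap in any line, and the gap was widest in UCSD-AML1 and narrowest in UT-7. Groups separated in this direction for 21.0% of all tested genes in TF-1, 24.1% of them in UT-7 and 23.1% of them in UCSD-AML1. The log2 fold change was -2.21 ± 0.09 in UCSD-AML1 (4.62-fold lower), -0.99 ± 0.08 in TF-1 (1.99-fold lower; -1.01 without replicate 1 of the treated group) and -0.35 ± 0.07 in UT-7 (1.28-fold lower). In UCSD-AML1 this was the 91st most negative fold change of 14588.

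PFKFB3, the form with the most one-sided kinase activity, had 55.4, 59.5, 55.7 and 52.9 CPM in TF-1 libraries given cyclocreatine, against 58.7, 56.6, 59.6 and 58.8 CPM in TF-1 vehicle libraries. In UCSD-AML1 it had 60.7, 70.4, 67.6 and 73.7 CPM in treated libraries, against 70.9, 70.7, 71.0 and 68.3 CPM in vehicle libraries. In UT-7 it had 41.8, 36.4, 39.9 and 40.1 CPM in treated libraries, against 50.9, 51.3, 48.2 and 48.5 CPM in vehicle libraries. Treated and vehicle libraries overlapped in TF-1 and UCSD-AML1. In UT-7 every treated library lay below every vehicle library, as for 24.1% of all tested genes in that line. The log2 fold change was -0.07 ± 0.05 in TF-1 (-0.07 without replicate 1 of the treated group), with a 95% interval of -0.17 to 0.04, and -0.05 ± 0.05 in UCSD-AML1, with an interval of -0.15 to 0.06. It was -0.33 ± 0.06 in UT-7 (1.26-fold lower). Scaled by library totals alone, the TF-1 value was -0.15, so that the size of this small difference depends on the scaling.

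**Figure D1:**
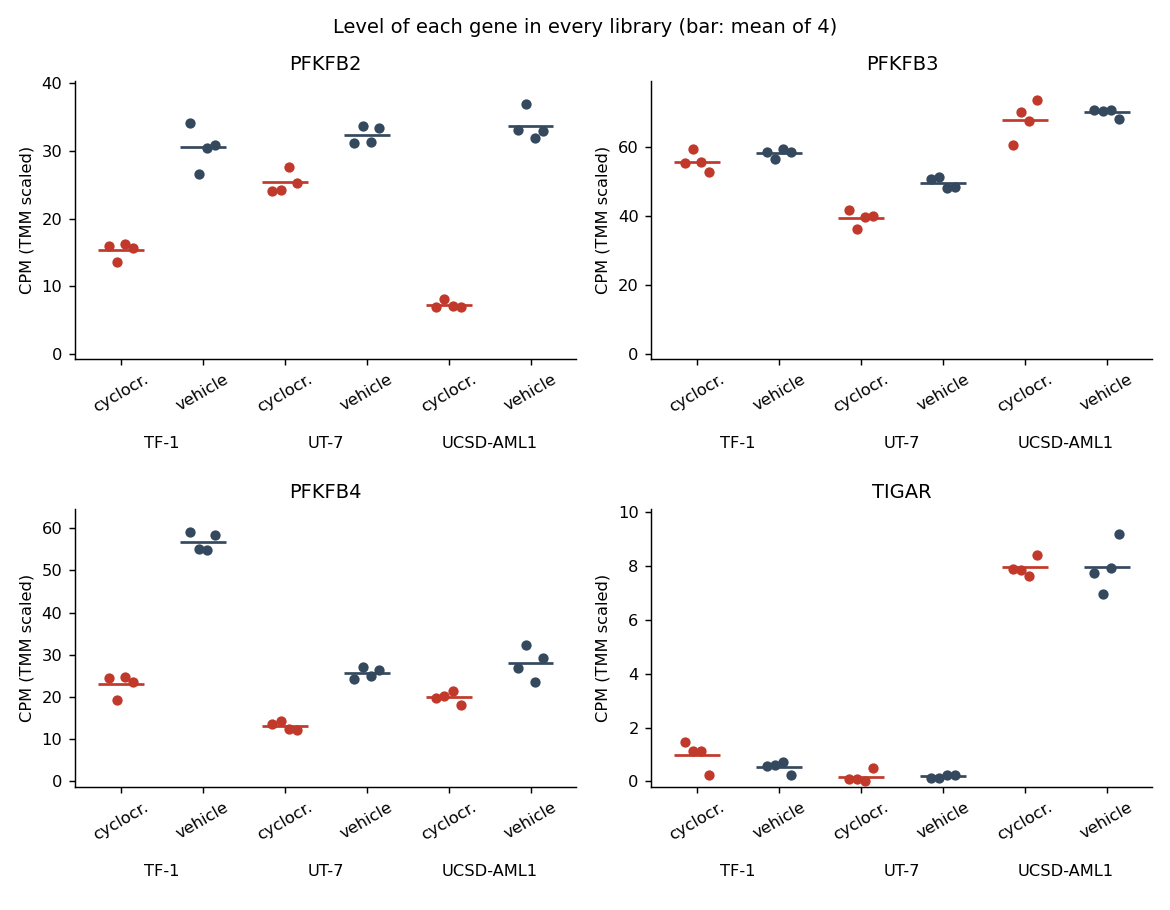
Level of PFKFB2, PFKFB3, PFKFB4 and TIGAR (CPM after TMM scaling, vertical axis, a panel per gene) in each library, with 4 points per group and a bar at their mean, and cyclocreatine (red) left of vehicle (dark blue) in each line. PFKFB2 and PFKFB4 points of treated and vehicle groups stand clear of each other in all 3 lines, and TIGAR is near 8 CPM in UCSD-AML1 alone, at 7.94 CPM with cyclocreatine and 7.95 CPM with vehicle.

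TIGAR lay near the detection limit in TF-1 and UT-7 and had clear expression in UCSD-AML1. It had 7.88, 7.84, 7.63 and 8.40 CPM in UCSD-AML1 libraries given cyclocreatine, against 7.74, 6.95, 7.93 and 9.17 CPM in UCSD-AML1 vehicle libraries. The 4 treated libraries lay within the range of the vehicle libraries, and the log2 fold change was -0.00 ± 0.18, with a 95% interval of -0.36 to 0.36. In TF-1 it had 1.46, 1.12, 1.14 and 0.250 CPM in treated libraries (60 counts in all), against 0.575, 0.605, 0.715 and 0.240 CPM in vehicle libraries (34 counts). Replicate 4 was the lowest library in both TF-1 groups and the groups overlapped; the log2 fold change was 0.82 ± 0.40 (0.54 without replicate 1 of the treated group), and the count ratio was 1.76 with a 95% interval of 1.14 to 2.77 that covers counting error only. In UT-7 the treated libraries held 9 counts and the vehicle libraries 11, too few to show a change of less than severalfold (count ratio 0.864, interval 0.316 to 2.29). TIGAR passed the filter through its level in UCSD-AML1, so that a difference between this line and the others had to appear. PFKFB1, the liver and muscle form, had at most 6 counts in any library. Its counts in replicates 1 to 4 were 3, 0, 3 and 0 in treated TF-1, against 0, 0, 1 and 1 in vehicle TF-1. UT-7 had 0, 1, 2 and 5 counts in treated libraries, against 4, 1, 6 and 4 in vehicle libraries, and UCSD-AML1 had 0, 0, 0 and 1 in treated libraries, against 1, 2, 0 and 3 in vehicle libraries. The ratio of summed counts, cyclocreatine over vehicle, had 95% intervals that include 1 in every line (0.535 to 30.3 for TF-1, 0.207 to 1.41 for UT-7 and 0.00371 to 1.41 for UCSD-AML1, counting error only), so that no effect of the drug on PFKFB1 was detectable at this depth. Without the drug, TF-1 had 2 counts in all and UT-7 had 15, a ratio of 0.121 with an interval of 0.0134 to 0.518, and every TF-1 vehicle library lay at or below 1 count.

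The lines differed in how far each gene stood from its vehicle level. For PFKFB2 the log2 fold changes differed by 1.22 ± 0.12 for TF-1 minus UCSD-AML1, by -0.64 ± 0.11 for TF-1 minus UT-7 and by 1.86 ± 0.12 for UT-7 minus UCSD-AML1. For PFKFB4 the differences were -0.81 ± 0.11 for TF-1 minus UCSD-AML1, -0.47 ± 0.12 for UT-7 minus UCSD-AML1 and -0.34 ± 0.12 for TF-1 minus UT-7. UCSD-AML1 thus had the most negative fold change of PFKFB2 and the least negative of PFKFB4. For PFKFB3 the differences were 0.26 ± 0.08 for TF-1 minus UT-7, -0.28 ± 0.08 for UT-7 minus UCSD-AML1 and -0.02 ± 0.07 for TF-1 minus UCSD-AML1, with a 95% interval of -0.17 to 0.12 for the last. For TIGAR they were 1.02 ± 0.89 for TF-1 minus UT-7, 0.82 ± 0.44 for TF-1 minus UCSD-AML1 and -0.20 ± 0.80 for UT-7 minus UCSD-AML1, all with 95% intervals that include 0. Without TF-1 cyclocreatine replicate 1, TF-1 minus UT-7 was -0.65 for PFKFB2, 0.26 for PFKFB3, -0.36 for PFKFB4 and 0.74 for TIGAR, and TF-1 minus UCSD-AML1 was 1.202 for PFKFB2, -0.02 for PFKFB3, -0.83 for PFKFB4 and 0.54 for TIGAR. The pairs of lines share a line, so these 3 differences per gene are not independent of each other.

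**Figure D2:**
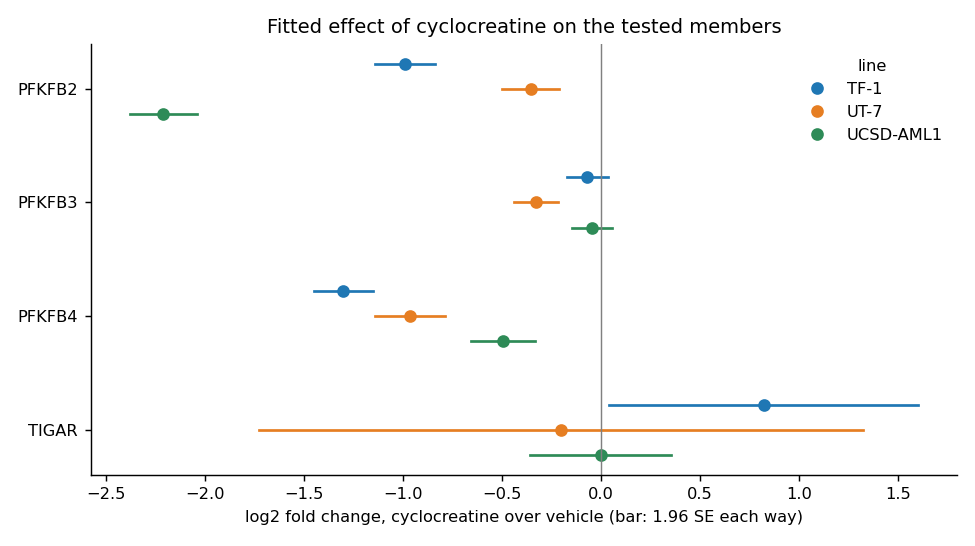
Log2 fold change of cyclocreatine over vehicle (horizontal axis) for the 4 tested genes in TF-1 (blue), UT-7 (orange) and UCSD-AML1 (green), with bars for the 95% interval. PFKFB2 is farthest left in UCSD-AML1 (-2.21) and PFKFB4 in TF-1 (-1.30), and the TIGAR bars in TF-1 and UT-7 are wide, with 60 treated and 34 vehicle counts in TF-1, and 9 treated and 11 vehicle counts in UT-7.

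Levels without the drug were compared between the lines by edgeR. The list names symbols, but whether these differences were known when it was drawn up is not recorded. The p values below therefore describe these libraries and give no independent support. PFKFB2 was close between the lines, at 30.5 ± 3.08 CPM in TF-1, 32.4 ± 1.31 CPM in UT-7 and 33.7 ± 2.19 CPM in UCSD-AML1. Libraries overlapped and none of its 3 comparisons passed (adjusted p = 0.277 for TF-1 against UT-7, 0.0586 for TF-1 against UCSD-AML1 and 0.445 for UT-7 against UCSD-AML1, edgeR). The log2 differences had 95% intervals of -0.22 to 0.06, -0.28 to -0.00 and -0.20 to 0.08 in that order. TF-1 against UCSD-AML1 did pass once TF-1 vehicle replicate 1 was left out (adjusted p = 0.0128, edgeR) or without UCSD-AML1 vehicle replicate 3 (0.0398). After cyclocreatine the group means were 15.4 ± 1.19, 25.3 ± 1.64 and 7.28 ± 0.585 CPM, so that the lines stood apart in PFKFB2 with the drug and close together without it.

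PFKFB4 was higher in vehicle-treated TF-1 than in the other 2 lines. It averaged 56.8 ± 2.26 CPM in TF-1, 25.6 ± 1.30 CPM in UT-7 and 28.1 ± 3.67 CPM in UCSD-AML1. TF-1 exceeded UT-7 by 1.15 ± 0.08 on the log2 scale (2.22-fold, adjusted p = 6.56e-17, edgeR) and UCSD-AML1 by 1.02 ± 0.07 (2.02-fold, adjusted p = 1.1e-15, edgeR). UT-7 and UCSD-AML1 did not differ past the threshold (-0.13 ± 0.08, 95% interval -0.29 to 0.02, adjusted p = 0.125, edgeR), except without UCSD-AML1 vehicle replicate 3 (adjusted p = 0.0197). With cyclocreatine PFKFB4 averaged 23.04 ± 2.49 CPM in TF-1, 13.1 ± 1.01 CPM in UT-7 and 19.9 ± 1.38 CPM in UCSD-AML1, so that treated TF-1 stood near the vehicle level of UT-7.

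PFKFB3 differed in all 3 pairs of lines at baseline, by small amounts. It averaged 58.5 ± 1.27 CPM in TF-1, 49.7 ± 1.60 CPM in UT-7 and 70.2 ± 1.27 CPM in UCSD-AML1. The log2 difference was 0.23 ± 0.05 for TF-1 against UT-7 (adjusted p = 0.00016), -0.26 ± 0.05 for TF-1 against UCSD-AML1 (adjusted p = 1.56e-05) and -0.50 ± 0.05 for UT-7 against UCSD-AML1 (adjusted p = 5.52e-11, edgeR throughout). TIGAR averaged 0.534 ± 0.205 CPM in TF-1, 0.189 ± 0.0587 CPM in UT-7 and 7.95 ± 0.923 CPM in UCSD-AML1. It was 14.7-fold lower in TF-1 than in UCSD-AML1 (log2 -3.88 ± 0.28) and 40.1-fold lower in UT-7 than in UCSD-AML1 (-5.32 ± 0.35), given as a description because the gene was kept through its level in UCSD-AML1. TF-1 against UT-7 rested on 34 and 11 counts with overlapping libraries (1.44 ± 0.58, adjusted p = 0.0229, edgeR), and did not pass without TF-1 vehicle replicate 3 (0.073), UT-7 vehicle replicate 1 (0.055) or UT-7 vehicle replicate 2 (0.0562). Differences between lines were the rule across the transcriptome: 79.7% of tested genes were called for TF-1 against UT-7, 84.0% for TF-1 against UCSD-AML1 and 81.5% for UT-7 against UCSD-AML1, beside 2, 2 and 1 of PFKFB2, PFKFB3 and PFKFB4.

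Levels of different genes were compared per kilobase of the longest coding transcript linked to RefSeq, 7094 bases for PFKFB2, 4524 for PFKFB3, 3586 for PFKFB4 and 2782 for TIGAR. On this scale PFKFB4 stood at 6.42 ± 0.694 CPM per kilobase in TF-1 with cyclocreatine and 15.9 ± 0.629 with vehicle, while PFKFB3 stood at 12.4 ± 0.603 with cyclocreatine and 12.9 ± 0.282 with vehicle. On these lengths PFKFB4 stood above PFKFB3 in vehicle TF-1 and below it after cyclocreatine. In UT-7, PFKFB3 stood at 8.74 ± 0.503 CPM per kilobase with cyclocreatine and 10.99 ± 0.354 with vehicle, above PFKFB4 at 3.67 ± 0.281 with cyclocreatine and 7.15 ± 0.363 with vehicle. In UCSD-AML1, PFKFB3 stood at 15.1 ± 1.22 with cyclocreatine and 15.5 ± 0.281 with vehicle, above PFKFB4 at 5.56 ± 0.385 with cyclocreatine and 7.82 ± 1.02 with vehicle. PFKFB2 was at 1.03 ± 0.0825 CPM per kilobase in treated UCSD-AML1, against 4.76 ± 0.309 with vehicle, which placed it below TIGAR in the treated cells (2.85 ± 0.119) and above it in the vehicle cells (2.86 ± 0.332). With the shortest coding transcripts (1491 bases for PFKFB4, 2094 for PFKFB3, 3494 for PFKFB2) PFKFB4 led PFKFB3 in vehicle TF-1 as well, at 38.1 against 27.9 CPM per kilobase, and PFKFB2 (2.08) stayed below TIGAR in treated UCSD-AML1. With the longest transcript of PFKFB4 and the shortest of PFKFB3 the order in vehicle TF-1 was turned, at 15.9 for PFKFB4 against 27.9 for PFKFB3. Gene counts do not say which transcripts the cells made, so that the order of these 2 genes in vehicle TF-1 depends on the transcripts assumed.

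**Figure D3:**
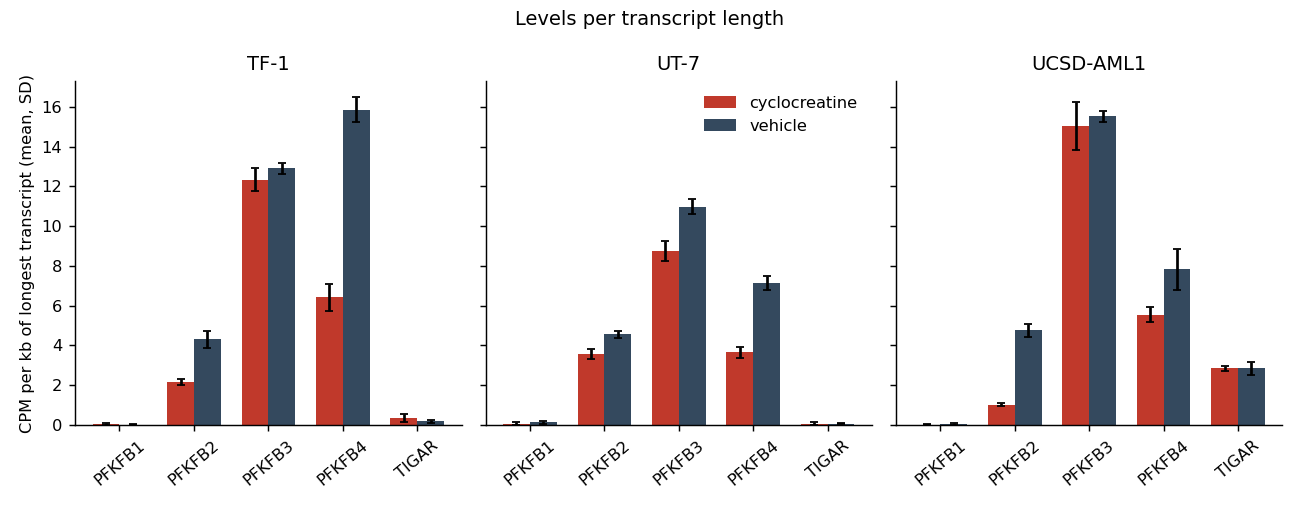
Level per transcript length (CPM per kilobase of the longest coding transcript, vertical axis) of the 5 genes in each line, cyclocreatine left of vehicle, as group means with SD over 4 libraries. On these lengths PFKFB4 leads in vehicle TF-1 (15.9) and PFKFB3 leads in every other group.

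The summed CPM of PFKFB1 to PFKFB4 was 94.4 ± 2.41 in TF-1 with cyclocreatine and 145.8 ± 5.83 with vehicle. It was 78.2 ± 2.24 in treated and 108.0 ± 3.14 in vehicle UT-7, and 95.3 ± 5.39 in treated and 132.1 ± 5.70 in vehicle UCSD-AML1. In all 3 lines the highest treated sum was below the lowest vehicle sum. PFKFB3 made up 59.2% ± 3.40 of the sum in treated TF-1 and 40.1% ± 1.18 in vehicle TF-1, 71.4% ± 2.25 in treated and 53.2% ± 2.41 in vehicle UCSD-AML1, and 50.6% ± 1.82 in treated and 46.0% ± 1.26 in vehicle UT-7. The share of PFKFB4 was 24.4% ± 2.31 in treated and 39.0% ± 0.853 in vehicle TF-1, and that of PFKFB2 was 7.65% ± 0.543 in treated and 25.5% ± 0.56 in vehicle UCSD-AML1. Without TF-1 cyclocreatine replicate 1 the treated TF-1 sum was 93.8 ± 2.62 (SD, n = 3), of which PFKFB3 made up 59.8% and PFKFB4 24.0%. These are shares of reads, which longer transcripts take more of, and cell number and RNA per cell cannot be told apart in such bulk samples.

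Overlapping genes were examined because the sources used here do not say whether the counting used strand. PFKFB2 shares 315 exonic bases with YOD1, a deubiquitinase gene on the opposite strand. YOD1 averaged 177 ± 19.6 CPM in treated and 199 ± 3.16 CPM in vehicle TF-1, 212 ± 15.6 CPM in treated and 201 ± 3.19 CPM in vehicle UT-7, and only 0.730 ± 0.145 CPM in treated and 0.917 ± 0.151 CPM in vehicle UCSD-AML1. How reads of the shared bases were split between PFKFB2 and YOD1 was not tested. The levels and fold changes of PFKFB2 in TF-1 and UT-7, and its differences between lines, carry that uncertainty. PFKFB4 shares 289 bases with UCN2, which had at most 3 counts in any library. TIGAR shares 1711 bases with AC008012.1 on its own strand and 121 bases with a pseudogene on the other, so its low counts carry that uncertainty too.

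The genes with the group pattern most like each tested member were found over the 6 group means of log2 CPM, each centred on its own mean, by the root mean square difference among 11795 genes. For PFKFB4 they were MIR210HG (0.127), the host transcript of the hypoxia-induced microRNA miR-210, LINC01215 (0.145), KBTBD8 (0.173), HDAC11 (0.191), a histone deacetylase, and FAM228B (0.206). MIR210HG averaged 3.05 CPM in treated and 6.25 CPM in vehicle TF-1, 1.66 CPM in treated and 3.32 CPM in vehicle UT-7, and 2.07 CPM in treated and 3.32 CPM in vehicle UCSD-AML1. These genes were picked for their likeness to PFKFB4 over the treated and vehicle groups, so that a lower level with cyclocreatine was part of the choice and was not tested. For PFKFB3 the nearest patterns were those of RAB4A (0.0485), ELF2 (0.0616), RMND5A (0.0697), DPH3 (0.0718) and TIMM13 (0.0721). For PFKFB2 no gene came as near: GP6, the collagen receptor of platelets, led at 0.403, followed by IRAK1BP1 (0.405), ABCC4 (0.412), ZSCAN31 (0.417) and FAM200A (0.451). GP6 averaged 11.1 CPM in treated and 32.5 CPM in vehicle UCSD-AML1. The genes nearest to TIGAR were GRAP (0.227), CD79A (0.31), HLA-H (0.319), SMIM24 (0.319) and RGS3 (0.357), each far higher in UCSD-AML1 than in the other lines. These distances describe 6 group means of the same libraries and were not tested.

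**Figure D4:**
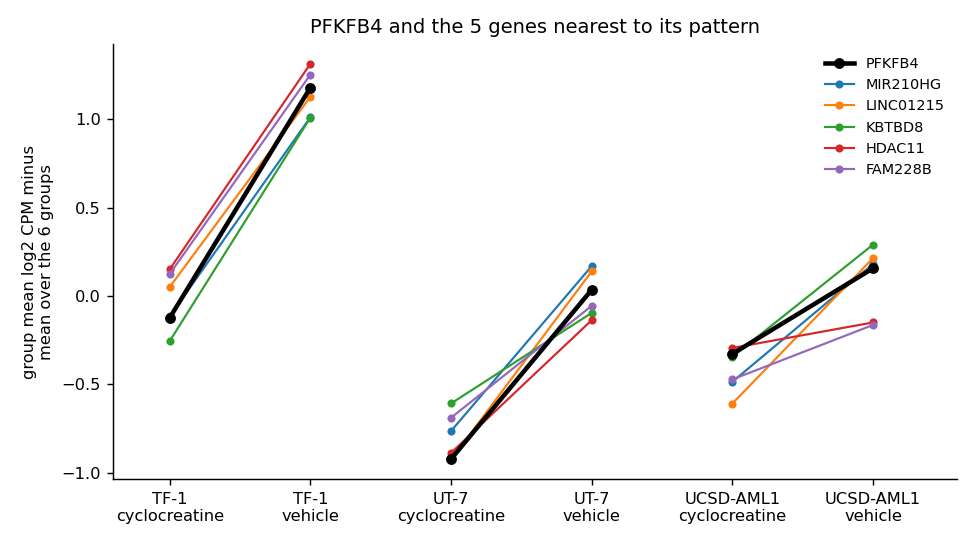
PFKFB4 (black) and the 5 genes nearest to its pattern, as group means of log2 CPM minus each gene's mean over the 6 groups (vertical axis, log2 units), with cyclocreatine left of vehicle in each line. All 6 curves are highest in vehicle TF-1, and HDAC11 and FAM228B have the flattest lines in UCSD-AML1.

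The enzyme that fructose-2,6-bisphosphate activates is built from PFKP, PFKM and PFKL, the platelet, muscle and liver forms of phosphofructokinase. Here and for the lists below, genes were tested by edgeR with adjustment over all 14588 genes. The lists were chosen with earlier results of these data known, and most genes named from the lists below were picked by the smallest p. Their p values therefore describe these libraries and give no independent support. PFKP fell in all lines: it averaged 163 ± 6.13 CPM in treated and 249 ± 1.92 CPM in vehicle TF-1 (log2 -0.61 ± 0.04, adjusted p = 4.82e-17), 154 ± 6.02 CPM in treated and 199 ± 5.0 CPM in vehicle UT-7 (-0.37 ± 0.04, 9.36e-11), and 265 ± 10.4 CPM in treated and 289 ± 7.87 CPM in vehicle UCSD-AML1 (-0.13 ± 0.04, 0.0038). The order of lines, with TF-1 most negative and UCSD-AML1 least, was the same as for PFKFB4. PFKM fell in UT-7 (-0.31 ± 0.06, adjusted p = 2.4e-05) and rose in UCSD-AML1 (0.28 ± 0.09, 0.0142), where it was scarce at 7.72 CPM in treated and 6.31 CPM in vehicle cells; in TF-1 its value was -0.07 ± 0.04 (0.152). PFKL rose in UCSD-AML1 (0.16 ± 0.04, adjusted p = 0.000325) and in TF-1 (0.13 ± 0.04, 0.00179), and in UT-7 its value was 0.05 ± 0.03 (0.276). In TF-1 the PFKL call was lost and PFKM fell when libraries were scaled by totals alone. FBP1 and FBP2, the fructose-1,6-bisphosphatases, had at most 10 and 7 counts in a library and were not tested.

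Among 23 tested genes of 26 for glycolytic enzymes and for glucose and lactate transport, 4 rose and 10 fell in TF-1, 3 rose and 10 fell in UT-7, and 3 rose and 9 fell in UCSD-AML1. The medians were -0.08, -0.11 and -0.13 on the log2 scale, beside -0.01, 0.00 and -0.00 over all tested genes, of which 26.7%, 22.5% and 19.1% rose in these lines and 29.3%, 23.3% and 21.3% fell. In TF-1 only 2 rose and 12 fell without cyclocreatine replicate 1. ENO2, the neuronal enolase, fell in TF-1 (16.0 ± 3.03 CPM treated, 40.5 ± 3.92 vehicle, log2 -1.32 ± 0.09, adjusted p = 4.96e-15, edgeR) and in UT-7 (14.9 ± 1.02 CPM treated, 28.3 ± 2.11 vehicle, -0.92 ± 0.10, 5.75e-10). It fell in UCSD-AML1 as well (-0.72 ± 0.11). SLC2A3, the neuronal glucose transporter, fell in TF-1 (-0.92 ± 0.06) and UT-7 (-0.25 ± 0.06) and did not pass in UCSD-AML1 (0.14 ± 0.06). ADPGK, an ADP-dependent glucokinase, rose in TF-1 (log2 0.61 ± 0.05), UT-7 (0.16 ± 0.05) and UCSD-AML1 (0.23 ± 0.05). SLC16A3, a lactate exporter, fell in UT-7 to 90.9 ± 6.01 CPM, against 187 ± 3.48 CPM with vehicle (-1.04 ± 0.05, adjusted p = 5.7e-20, edgeR). It also fell in TF-1 (-0.54 ± 0.05) and did not pass in UCSD-AML1 (-0.04 ± 0.04). HK2, a hexokinase, fell in TF-1 (-0.49 ± 0.05), UT-7 (-0.56 ± 0.05) and UCSD-AML1 (-0.22 ± 0.05). LDHA, lactate dehydrogenase A, fell in the same lines (-0.17 ± 0.03, -0.22 ± 0.03 and -0.35 ± 0.03), and so did PGK1, phosphoglycerate kinase (-0.22 ± 0.03, -0.19 ± 0.03 and -0.26 ± 0.03). SLC16A1, a lactate and pyruvate carrier, fell in TF-1 (-0.11 ± 0.04), UT-7 (-0.11 ± 0.04) and UCSD-AML1 (-0.36 ± 0.04).

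Hypoxia-inducible factors are known to raise PFKFB3 and PFKFB4. Of 21 tested targets of these factors outside glycolysis, 22 listed, 14 fell and 0 rose in TF-1, 8 fell and 3 rose in UT-7, and 11 fell and 1 rose in UCSD-AML1, with medians of -0.25, -0.17 and -0.14. Without TF-1 cyclocreatine replicate 1, 13 fell in TF-1. The shares over all tested genes that fell and rose were 29.3% and 26.7% in TF-1, 23.3% and 22.5% in UT-7, and 21.3% and 19.1% in UCSD-AML1. AK4, a mitochondrial adenylate kinase, fell in all 3 lines: it averaged 117 ± 3.87 CPM in treated and 190 ± 5.90 CPM in vehicle TF-1 (-0.70 ± 0.04, adjusted p = 1.07e-16), 108 ± 8.01 CPM in treated and 184 ± 7.39 CPM in vehicle UT-7 (-0.77 ± 0.04, 2.79e-17) and 76.7 ± 1.23 CPM in treated and 113 ± 3.72 CPM in vehicle UCSD-AML1 (-0.56 ± 0.05, 9.67e-13). BHLHE40, a transcriptional repressor, fell in TF-1 (-1.15 ± 0.06) and UT-7 (-1.08 ± 0.08) and did not pass in UCSD-AML1 (-0.01 ± 0.06). PDK1, which restrains pyruvate dehydrogenase, fell in TF-1 (-0.54 ± 0.05), UT-7 (-0.32 ± 0.06) and UCSD-AML1 (-0.54 ± 0.05). BNIP3, a mitophagy receptor, fell in the same lines (-0.41 ± 0.06, -0.70 ± 0.07 and -0.87 ± 0.07). Of 8 tested genes for the factors and their regulators, 5 fell and 1 rose in TF-1, 3 fell and 2 rose in UT-7, and 3 fell and 1 rose in UCSD-AML1, with medians of -0.24, -0.04 and -0.03. EGLN1, the main oxygen-sensing prolyl hydroxylase, fell in TF-1 (-0.56 ± 0.05), UT-7 (-0.69 ± 0.07) and UCSD-AML1 (-0.27 ± 0.05), and EGLN3, which is itself induced by these factors, fell in TF-1 (-0.92 ± 0.14) and UT-7 (-0.98 ± 0.15) and did not pass in UCSD-AML1 (0.05 ± 0.08). VHL, which marks the factors for destruction, fell in TF-1 (-0.35 ± 0.04) and UCSD-AML1 (-0.18 ± 0.04). In UT-7 (-0.09 ± 0.05) it did not pass but fell with library totals alone (-0.12, adjusted p = 0.0312, edgeR). HIF1AN, which hydroxylates the factors at an asparagine, fell in TF-1 (-0.30 ± 0.05), UT-7 (-0.35 ± 0.05) and UCSD-AML1 (-0.20 ± 0.05). ARNT, the partner subunit of the factors, rose in UT-7 (0.23 ± 0.05) and UCSD-AML1 (0.19 ± 0.04), and in TF-1 (-0.09 ± 0.05) it did not pass but fell without cyclocreatine replicate 1 (-0.12, adjusted p = 0.0374, edgeR) and with library totals alone (-0.17, 0.00155).

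Of 12 tested genes, 14 listed, for kinases, ligases and a methyltransferase known from other cells to act on PFKFB proteins, 7 fell and 4 rose in TF-1, 7 fell and 4 rose in UT-7, and 5 fell and 2 rose in UCSD-AML1. The medians were -0.21, -0.15 and -0.02. Over all tested genes 29.3% fell and 26.7% rose in TF-1, 23.3% fell and 22.5% rose in UT-7, and 21.3% fell and 19.1% rose in UCSD-AML1. PIM2, a kinase reported to phosphorylate PFKFB4 and PFKFB3, fell in all 3 lines: it averaged 94.5 ± 6.08 CPM in treated and 189 ± 4.77 CPM in vehicle TF-1 (-1.002 ± 0.04, adjusted p = 1.16e-20), 87.2 ± 2.65 CPM in treated and 182 ± 3.53 CPM in vehicle UT-7 (-1.06 ± 0.05, 9.07e-21), and 35.5 ± 2.49 CPM in treated and 89.9 ± 3.78 CPM in vehicle UCSD-AML1 (-1.34 ± 0.05, 1.34e-22). AKT2, a kinase of the family that phosphorylates PFKFB2, rose in TF-1 (0.37 ± 0.04), UT-7 (0.28 ± 0.04) and UCSD-AML1 (0.32 ± 0.04). AKT1, of the same family, fell in TF-1 (-0.23 ± 0.04) and UT-7 (-0.22 ± 0.04) and did not pass in UCSD-AML1 (-0.06 ± 0.04). PDPK1, which activates AKT kinases, fell in TF-1 (-0.61 ± 0.06), UT-7 (-0.44 ± 0.05) and UCSD-AML1 (-0.22 ± 0.05), and RPS6KA1, a ribosomal S6 kinase, fell in the same lines (-0.32 ± 0.03, -0.57 ± 0.04 and -0.39 ± 0.03). PRKACB, a catalytic subunit of protein kinase A, rose in TF-1 (0.29 ± 0.06) and UT-7 (0.54 ± 0.05) and did not pass in UCSD-AML1 (0.02 ± 0.05). PRKACA, another catalytic subunit, fell in TF-1 (-0.22 ± 0.06) and UT-7 (-0.14 ± 0.05) and did not pass in UCSD-AML1 (0.06 ± 0.05).

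Of all 8 genes of the pentose phosphate pathway, 5 rose and 1 fell in TF-1, 2 rose and 3 fell in UT-7, and 3 rose and 1 fell in UCSD-AML1, with medians of 0.17, -0.07 and 0.07. The shares over all tested genes were 26.7% rising and 29.3% falling in TF-1, 22.5% and 23.3% in UT-7, and 19.1% and 21.3% in UCSD-AML1. H6PD, the hexose-6-phosphate dehydrogenase of the endoplasmic reticulum, rose in TF-1 (0.62 ± 0.09), UT-7 (0.84 ± 0.10) and UCSD-AML1 (0.59 ± 0.10). PGLS, a lactonase of the pathway, rose in TF-1 (0.50 ± 0.08), UT-7 (0.40 ± 0.08) and UCSD-AML1 (0.45 ± 0.08). PGD, which releases carbon dioxide from the pathway, rose in TF-1 (0.18 ± 0.03) and UCSD-AML1 (0.11 ± 0.03) and fell in UT-7 (-0.15 ± 0.03). RPIA, a ribose phosphate isomerase, rose in TF-1 (0.36 ± 0.05) and did not pass in UT-7 (0.01 ± 0.05) or UCSD-AML1 (-0.10 ± 0.05), where it fell when libraries were scaled by totals alone (-0.11, adjusted p = 0.0472, edgeR). In TF-1, 2 of the 8 fell without cyclocreatine replicate 1.

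**Figure D5:**
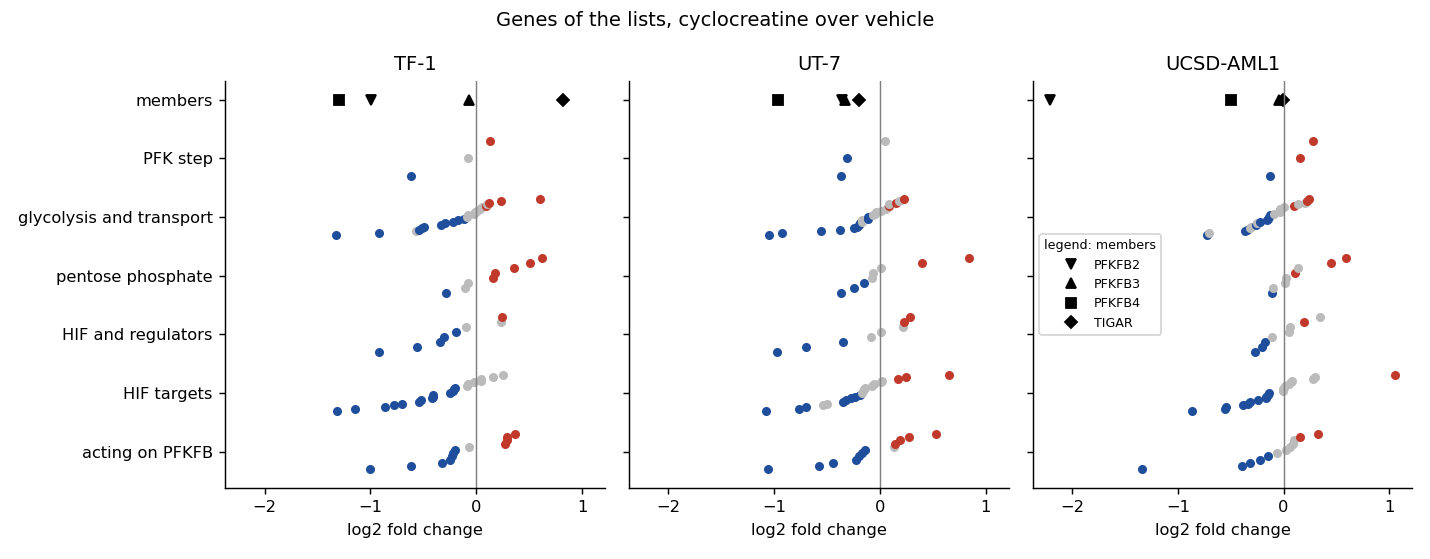
Log2 fold change of cyclocreatine over vehicle (horizontal axis) of each tested gene of the lists described here in each line, with red points for genes that rose, blue for genes that fell and grey for those that did not pass edgeR at an adjusted p under 0.05; black shapes on the top row are PFKFB2, PFKFB3, PFKFB4 and TIGAR, shown without a call. In TF-1, 14 of the 21 tested targets of hypoxia-inducible factors (HIF) outside glycolysis are blue and 0 are red.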

How the data were processed

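Per the labels, cells were treated in quadruplicate, RNA was extracted with RNeasy columns and Illumina libraries were sequenced on a HiSeq. Each deposited file holds the raw counts of a library per RefSeq gene symbol. FastQC, TopHat2, RSEM, GRCh37 and hg19 are named in the submitters' processing notes; versions, roles and strand use are not given. Totals differed between libraries (12794998 to 21200662 counts).

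From the deposited counts, genes were kept by filterByExpr (smallest count 10, smallest total 15) and scaled by TMM, and 1 group-means model on 24 libraries was fitted with edgeR 4.0.16 (robust quasi-likelihood test, R 4.3.3), with Benjamini-Hochberg adjustment over 14588 genes and a threshold of 0.05. The script was tested on simulated data. CPM and log2 values were computed from the deposited counts (prior count 2 for log2 CPM in the likeness search, over genes whose mean reached 5 CPM in a group). The approximate SE was derived from the fold change and F; 95% intervals are normal intervals from the SE, and count-ratio intervals are exact binomial and cover counting error only. Alternatives were RLE scaling, library totals alone, no filter, a fit of only the 2 groups compared, limma-voom 3.58.1, DESeq2 1.42.0, a replicate block and each library left out.

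The members and lists were chosen with earlier results of these data known. From each list, for each line, up to 3 tested genes with the smallest p and at least 1 CPM were named, with PFKL, PFKM, PFKP and FBP1 always; some genes that this rule names and 1 list are not reported here; FBP2 was added after its values were seen. Likeness named 5 genes per member. Promoters are RefSeq's, in GRCh38.p14, and lengths are from GENCODE transcripts. PFKFB1 had too few counts for any fit.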

Additional observations from a re-analysis of the deposited data

Results flagged for a closer look

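Over the 5 genes and 6 groups, 30 sets of 4 libraries were examined for a library far from the other 3; chance would set apart about 1 in 20 such sets. PFKFB2 stood at 8.15 CPM in UCSD-AML1 cyclocreatine replicate 2, against 6.92 to 7.11 CPM in the other treated libraries of that line, and all 4 remained far below the vehicle libraries. PFKFB3 stood at 68.3 CPM in UCSD-AML1 vehicle replicate 4, against 70.7 to 71.0 CPM in the other 3, a gap that stands out because those lie so close together. TIGAR stood at 0.498 CPM in UT-7 cyclocreatine replicate 4, against 0 to 0.0771 CPM in the others, so that most of its 9 counts in that group came from this library. PFKFB1 stood at 0.0695 CPM, a single count, in UCSD-AML1 cyclocreatine replicate 4, with 0 in the other 3. A single count among libraries at 0 is always set apart by this rule. The rate of 1 in 20 does not hold where counts are this few, as for PFKFB1 and for TIGAR in UT-7.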

How the results depend on the processing

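Of 179 recomputed treatment values of the members, 177 moved by less than the spread between replicates, and of 264 recomputed differences between lines in that effect, 260 did; of 179 recomputed baseline differences, 168 kept their side of the threshold. No direction of a called value was reversed. With library totals alone, the share of higher calls in TF-1 was 36.5% (3001 higher, 5225 lower), against 47.7% (3901 and 4272) with TMM, and the median of all genes in that line was -0.09. Under that scaling the PFKFB2 difference between TF-1 and UT-7 was -0.16 (adjusted p = 0.0383 in edgeR; 0.0383 to 0.765 over all alternatives), the PFKFB3 effect in TF-1 was -0.15, and TF-1 minus UCSD-AML1 for that effect was -0.10. PFKFB2 between TF-1 and UCSD-AML1 passed with library totals alone (-0.18, adjusted p = 0.0155 in edgeR) and with limma-voom (-0.15, 0.0359), within a range of 0.0128 to 0.283 over all alternatives; single libraries left out gave -0.20 to -0.084. PFKFB4 between UT-7 and UCSD-AML1 ranged over -0.20 to -0.058 (adjusted p 0.0197 to 0.522 in edgeR) with single libraries left out. TIGAR moved most: its UT-7 effect was -1.79 to 0.21, TF-1 minus UT-7 was 0.62 to 2.61 and UT-7 minus UCSD-AML1 was -1.79 to 0.21 with single libraries left out and -0.81 with limma-voom. Its baseline difference between TF-1 and UT-7 was 1.26 to 1.70 with single libraries left out and 1.27 with limma-voom, where it did not pass (adjusted p = 0.0544; 0.00557 to 0.073 over all alternatives). The number of genes called stayed within 1.5 times in all 90 alternatives. Fixed list counts moved further in 10 of 98: with library totals alone TF-1 had 0 rising and 2 falling genes at the phosphofructokinase step, 2 rising for glycolysis and transport, 3 falling for the pentose phosphate pathway and 0 rising for hypoxia-inducible factors and regulators, and the pentose phosphate pathway had 5 falling in UT-7 and 2 in UCSD-AML1. The cause of these moves was not tested.

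Same-numbered libraries of a line did not deviate together (12 pairs, r of -0.124 to 0.0813, none over 0.1), and 3 of 24 libraries correlated best with their own number, so the numbers were not taken as pairs. With replicate number as a block, PFKFB2 between TF-1 and UCSD-AML1 passed (-0.15, adjusted p = 0.0383 in edgeR, 0.0128 to 0.283 over all alternatives) and the pentose phosphate pathway had 0 falling genes in UCSD-AML1. Depth limits TIGAR in TF-1 and UT-7, and PFKFB1 could not be fitted in any line.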
